A study of Rattus norvegicus with 15 samples.

Results

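The comparison set spinal cord from rats given the whole Yuan-Hu Zhi Tong Prescription (YZP) against cord from rats given the preparation labelled BZ. It used 6 of the 15 libraries of the series, chosen by their titles: 3 of CCI+YZP and 3 of CCI+BZ. All 6 came from adult male Sprague-Dawley rats with a chronic constriction injury of the left sciatic nerve (CCI), made by tying 4 ligatures loosely around it. CCI+YZP rats received YZP at 10.8 g crude drug per kg and CCI+BZ rats received BZ at 3.6 g crude drug per kg, for 5 days from postoperative day 6 to day 10. The injured side of the L4-L6 lumbar cord was taken on day 10. For context, 3 libraries each came from ligated rats given YH at 7.2 g crude drug per kg (CCI+YH), from ligated rats with no preparation (CCI) and from rats whose nerve was exposed and not ligated (Sham). The labels give 7 rats for each ligated group and do not tie each library to a rat, so p-values measure the spread between libraries.

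As background, Yuan-Hu Zhi Tong is a traditional Chinese pain remedy made from the rhizome of a Corydalis species and the root of Angelica dahurica. Corydalis alkaloids such as tetrahydropalmatine are known for acting on dopamine receptors, and Angelica dahurica contains furanocoumarins. The labels do not spell out the names YH and BZ, and the YH and BZ doses add up to the YZP dose. The title speaks of the compatibility mechanism of the prescription. If BZ is a part of it, CCI+YZP against CCI+BZ asks what the whole prescription changed beyond BZ. The doses of the 2 groups differ, so a difference between them belongs to a preparation at its dose. In the dorsal horn of the lumbar cord, input from the sciatic nerve is passed on by neurons and modified by microglia and astrocytes, and bulk RNA pools all of these cells. In such tissue, fewer cells of a type and less RNA per cell cannot be told apart.

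Genes were kept where the level in CPM (counts scaled to the library's total) reached 1 in at least 3 of the 6 libraries, which left 14939 of 34202 rows. Ensembl rat identifiers stood on 14199 of them, and the other 740 were loci known by a running number alone. Total counts were 15605935, 17759724 and 20612814 in the CCI+YZP libraries and 18027835, 19146341 and 19910603 in the CCI+BZ libraries, and the 15 libraries ranged from 15093246 to 22757104. The files do not pair identifiers with symbols, and the reference table gave an Ensembl identifier for 0 of its 47357 genes. Gene names, functions, cell type markers and the tissue label were therefore not checked here. Identifiers are printed for the 2 higher and the 2 lower genes of smallest p, chosen after their values were seen, and other genes are given by their rank.

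Few genes were called between CCI+YZP and CCI+BZ cords. EdgeR's quasi-likelihood test, with Benjamini-Hochberg adjustment over all kept genes, called 3 of 14939 genes at an adjusted p under 0.05, or 0.0201%. All 3 were higher in CCI+YZP, by 1.67-fold to 1.78-fold. At an adjusted p under 0.1 the test gave 7 genes (0.0469%), 5 higher (0.0335%) and 2 lower (0.0134%). Without adjustment, 742 genes had a p under 0.05 (4.97%), where 5% of the genes tested is 746.95. In CCI+YZP 368 of them were higher (2.46%) and 374 lower (2.5%). The number with such a p moved with the setting, so its closeness to 5% is particular to the main fit. It ranged from 389 by DESeq2 on the 6 libraries to 1003 by edgeR without CCI+BZ replicate 1. DESeq2 on the 15 libraries called 21 genes (0.141% of 14929), 14 higher and 7 lower, with all 3 genes among them. The 3 calls depended on single libraries of the groups compared. With CCI+BZ replicate 2 left out the count was 0. Leaving out either of the first 2 libraries of CCI+YZP, or the first of CCI+BZ, gave a count of 1, and leaving out CCI replicate 1 gave 5.

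ENSRNOG00000021824 had the smallest p of all genes. It stood at 146, 151 and 150 CPM in the CCI+YZP libraries, against 91.9, 87.3 and 87.9 CPM in the CCI+BZ libraries. The groups were far apart and tight, with CCI+YZP averaging 149 ± 2.43 CPM and CCI+BZ averaging 89.0 ± 2.51 CPM (SD, n = 3 each). The log2 fold change was 0.74 (SE 0.0802, 95% interval 0.57 to 0.91, edgeR adjusted p = 0.00437). The other groups lay between these levels, at 146, 115 and 134 CPM in CCI+YH, 125, 107 and 118 CPM in CCI and 105, 112 and 99.1 CPM in Sham. No library of the other groups was as low as the highest CCI+BZ library, and CCI+YH replicate 1 came close to the lowest CCI+YZP library. Against CCI, which serves both comparisons, its log2 fold change was 0.35 in CCI+YZP (SE 0.0795, edgeR adjusted p = 0.432) and -0.39 in CCI+BZ (SE 0.0801, adjusted p = 0.390). Its adjusted p missed the threshold without CCI+BZ replicate 2 (0.0581) and without both CCI+YZP replicate 2 and CCI+BZ replicate 1 (0.0691), and its alternatives spanned 4.29e-21 to 0.0691.

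ENSRNOG00000045863 was a gene of low level. It stood at 10.0, 10.1 and 8.94 CPM in CCI+YZP, against 6.12, 5.32 and 5.54 CPM in CCI+BZ, or 158 to 184 counts per library against 100 to 114. The groups did not overlap, and the log2 fold change was 0.78 (SE 0.103, 95% interval 0.56 to 1.00, edgeR adjusted p = 0.0193). Against CCI, its log2 fold change was 0.41 in CCI+YZP (SE 0.101, edgeR adjusted p = 0.485) and -0.37 in CCI+BZ (SE 0.103, adjusted p = 0.577). CCI+YH held 10.5, 9.71 and 9.70 CPM, overlapping CCI+YZP. CCI held 7.18, 6.99 and 7.81 CPM and Sham held 5.94, 6.84 and 6.598 CPM, so every library given YZP or YH lay above every library without them. The call was lost without CCI+YZP replicate 1, CCI+YZP replicate 2 or any CCI+BZ library (adjusted p 0.0526 to 0.214) and in a fit of the 6 libraries alone (0.352). Over its alternatives the adjusted p ranged from 0.000105 to 0.352.

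The third called gene differed from the first pair in that CCI+YH and CCI overlapped CCI+BZ. It held 22.4, 20.3 and 23.6 CPM in CCI+YZP, against 11.3, 11.7 and 14.3 CPM in CCI+BZ (log2 fold change 0.83, SE 0.112, edgeR adjusted p = 0.0193). Against CCI, its log2 fold change was 0.96 in CCI+YZP (SE 0.112, edgeR adjusted p = 0.0107) and 0.13 in CCI+BZ (SE 0.113, adjusted p = 0.837). CCI+YH held 16.5, 13.4 and 13.8 CPM, CCI held 10.6, 11.5 and 12.0 CPM and Sham held 10.6, 12.1 and 11.3 CPM. The lowest CCI+YZP library was thus above every library of the other groups. That also held, by a small margin, for ENSRNOG00000021824 (146.2 CPM against 145.8 CPM in CCI+YH replicate 1). Its call was lost without any CCI+YZP library, CCI+BZ replicate 1 or CCI+BZ replicate 2 (adjusted p 0.0528 to 0.214) and in the fit of the 6 libraries (0.282), and its alternatives spanned 3.08e-07 to 0.282.

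**Figure D1:**
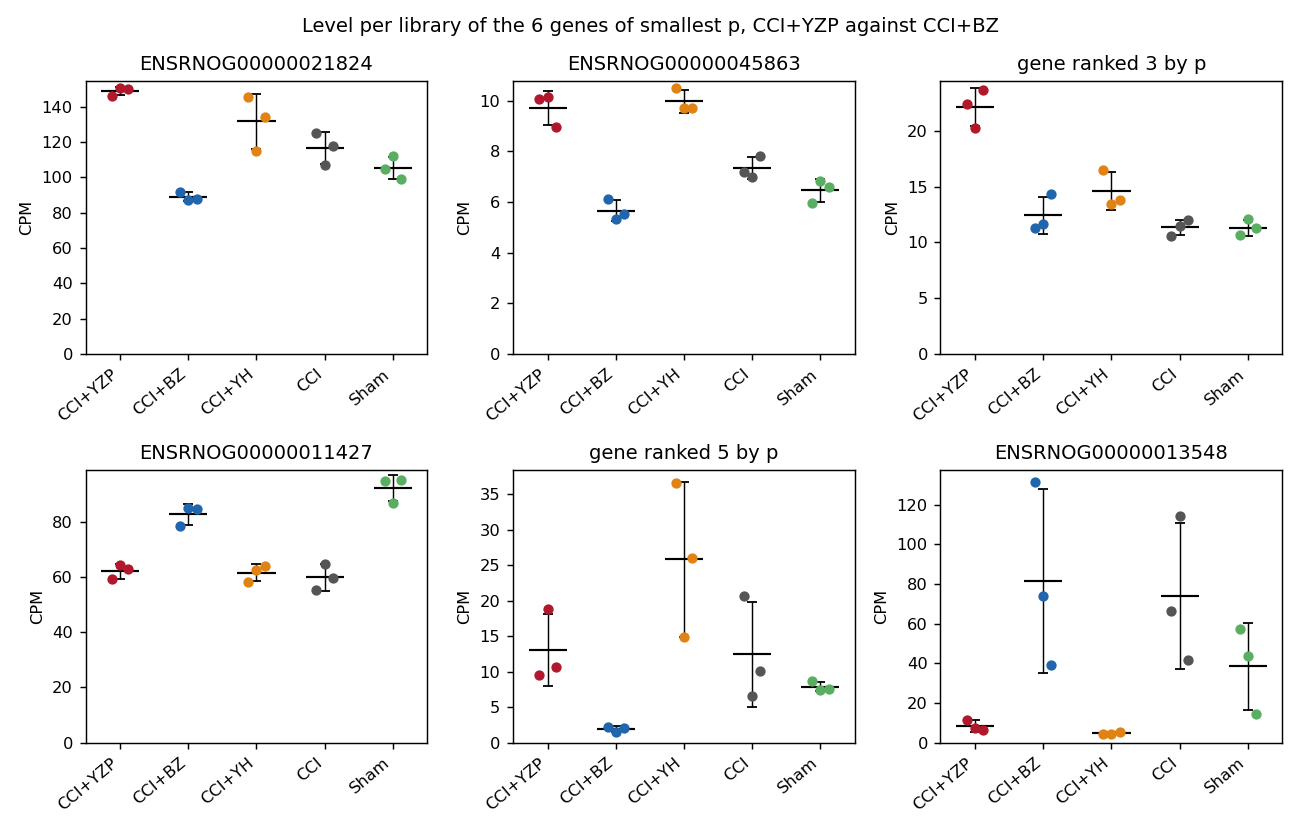
CPM on a linear axis from 0 for the 6 genes of smallest p in CCI+YZP against CCI+BZ, in each of the 5 groups. Points are libraries, horizontal lines are means and bars are SD (n = 3). In every panel the CCI+YZP and CCI+BZ libraries do not overlap, and ENSRNOG00000013548 stands between 6.35 and 11.6 CPM in CCI+YZP against 39.3 to 131 CPM in CCI+BZ.

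By edgeR on the 15 libraries no gene was called lower in CCI+YZP, with 374 lower genes at an unadjusted p under 0.05, while DESeq2 called 7 lower. ENSRNOG00000011427 had the smallest p among the lower genes, at 59.1, 64.3 and 62.8 CPM in CCI+YZP, against 78.3, 85.1 and 84.6 CPM in CCI+BZ (log2 fold change -0.41, SE 0.0671, edgeR adjusted p = 0.0855). The groups did not overlap. CCI+YH (58.3, 62.4 and 64.1 CPM) and CCI (55.1, 64.7 and 59.8 CPM) overlapped CCI+YZP, and Sham was highest at 94.7, 87.0 and 95.03 CPM. For this gene the CCI+BZ libraries were the ligated ones nearest to Sham. Without CCI replicate 1 the edgeR adjusted p of ENSRNOG00000011427 was 0.0494, and DESeq2 gave 7.99e-05. Of 31 alternatives 27 left it uncalled, and its adjusted p over them ranged from 7.99e-05 to 0.415.

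ENSRNOG00000013548 had a large difference and a wide spread. It held 11.6, 7.11 and 6.35 CPM in CCI+YZP, against 131, 74.1 and 39.3 CPM in CCI+BZ, a log2 fold change of -3.30 (SE 0.548, 95% interval -4.48 to -2.12, edgeR adjusted p = 0.0855). The highest CCI+YZP library was below the lowest CCI+BZ library, while the CCI+BZ libraries were themselves far apart. CCI+YH was lower still, at 4.43, 4.37 and 5.32 CPM, whereas CCI held 66.4, 114 and 41.7 CPM and Sham held 57.4, 43.9 and 14.5 CPM. All libraries given YZP or YH were thus below all libraries without them. Settings that called it included DESeq2 on the 15 libraries (adjusted p = 1.80e-05) and on the 6 libraries (6.19e-06). They also included edgeR without Sham replicate 3 (0.0312), without CCI+BZ replicate 3 (0.0425) and with the share of counts in the 3 most abundant genes as a covariate (0.0400). Of 31 alternatives 24 left it uncalled, among them limma voom (adjusted p = 0.373) and edgeR on the 6 libraries (0.282). Its adjusted p over all alternatives ranged from 6.19e-06 to 0.594.

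The gene ranked 5 by p was lowest in CCI+BZ. It held 9.47, 18.9 and 10.7 CPM in CCI+YZP, against 2.25, 1.49 and 2.12 CPM in CCI+BZ (log2 fold change 2.73, SE 0.452, edgeR adjusted p = 0.0855). All other groups were above CCI+BZ, at 36.6, 14.8 and 26.1 CPM in CCI+YH, 20.7, 6.54 and 10.0 CPM in CCI and 8.66, 7.42 and 7.61 CPM in Sham. The result for this gene depended on the method, with an adjusted p of 5.82e-08 by DESeq2 and 0.603 by limma voom. Of 31 alternatives 26 left it uncalled. The gene ranked 7 held 17.4, 20.4 and 19.6 CPM in CCI+YZP, against 14.2, 13.0 and 13.4 CPM in CCI+BZ (log2 fold change 0.50, SE 0.0846, adjusted p = 0.0881). It had the smallest difference among the genes higher at an adjusted p under 0.1.

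Most genes had differences that were bounded closely. The median absolute log2 fold change was 0.077, 95% of genes were within 0.43, and the median SE was 0.115. For 13716 genes (91.8%) the 95% interval lay wholly within a 2-fold difference in either direction, and for 11412 (76.4%) within 1.5-fold. This precision followed the level. With the genes split by level into 4 classes of equal size, the class of highest level began at 54.8 CPM. There the median half-width of the interval was 0.157 on the log2 scale and 99.5% of genes were within a 2-fold difference. In the class of lowest level, up to 6.58 CPM, the half-width was 0.539 and 74.4% of genes were within it. Unadjusted p was under 0.05 for 5.11%, 5.33%, 5.33% and 4.10% of genes from the lowest to the highest class. Among the 740 numbered loci 37 had such a p, or 5.00%.

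**Figure D2:**
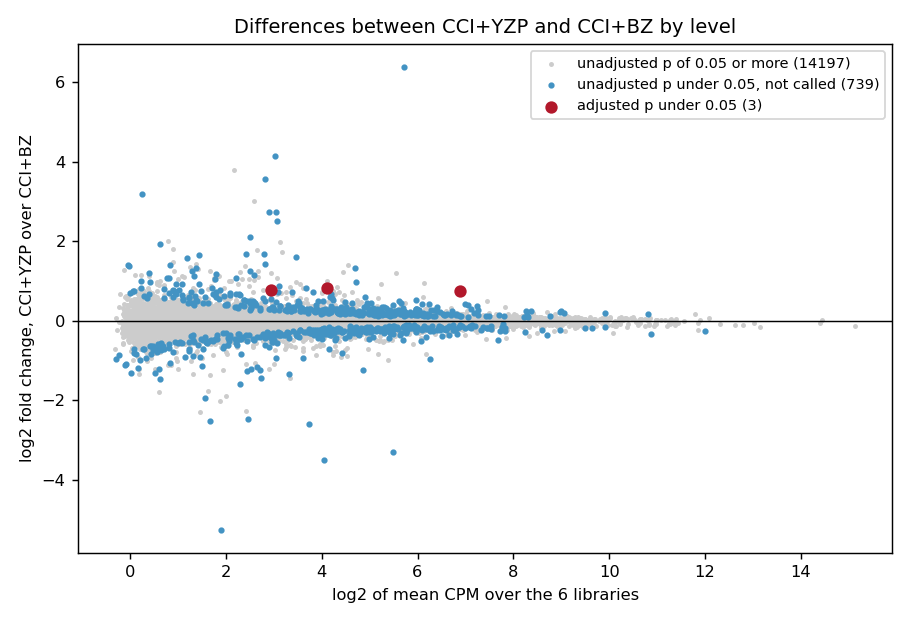
Log2 fold change of CCI+YZP over CCI+BZ against the log2 of the mean CPM over the 6 libraries, with 1 point for each of 14939 genes. Grey points have an unadjusted p of 0.05 or more, blue points a smaller one, and the 3 red points are the called genes, with log2 fold changes of 0.74, 0.78 and 0.83.

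The libraries of CCI+YZP lay wholly above those of CCI+BZ for 668 genes (4.47%) and wholly below them for 711 (4.76%), together 9.23% of the genes tested. With 3 libraries in each group, full separation arises at about this share also where groups do not differ. Of the 742 genes with an unadjusted p under 0.05, 547 were among these. A CPM of 1 was reached in all 3 CCI+YZP libraries and no CCI+BZ library for 10 genes, none with a CCI+YZP mean above 2.82 CPM. The reverse held for 15 genes, none with a CCI+BZ mean above 7.21 CPM. These genes passed the filter through the group in which they were high, so their count is a description. The numbered locus of largest difference was among the 15, with 3, 1 and 6 counts in the CCI+YZP libraries against 141, 170 and 98 counts in the CCI+BZ libraries (log2 fold change -5.25, edgeR adjusted p = 0.699). It also varied within other groups, at 5.78, 0.314 and 0.111 CPM in CCI and 0.132, 0.343 and 6.96 CPM in CCI+YH. Sham held 9.11, 9.57 and 5.59 CPM, against 7.57, 9.05 and 5.07 CPM in CCI+BZ.

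Large differences rested in part on single libraries. At an unadjusted p under 0.05, 55 genes had a difference of at least 2-fold, 31 higher and 24 lower in CCI+YZP. In 36 of them (65.5%) the groups did not overlap, 19 higher and 17 lower. Of all 742 genes with an unadjusted p under 0.05, 547 did not overlap. The 55 were chosen by values in the same libraries, so these counts are descriptions. In 7 of the 55, 6 higher and 1 lower, 1 library held more than 75% of the summed CPM of the higher group. A mean level under 5 CPM was found for 30 of the 55.

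CCI+YH against CCI uses none of these 6 libraries and sets a group given YH against one without it. CCI+YZP against CCI+BZ does so too if YZP is YH plus BZ, which the doses allow and the labels do not state. Values of CCI+YH against CCI were placed beside it on that reading. By edgeR, CCI+YH against CCI called 0 of 14939 genes (0%), with 830 at an unadjusted p under 0.05 (5.56%). DESeq2 called 13 (0.0871%). Of the 32 genes with an unadjusted p under 0.001 in CCI+YZP against CCI+BZ, 30 had the same sign in CCI+YH against CCI, or 93.8%. The share was 64.1% of 153 genes with a p of 0.001 to 0.01, 64.8% of 557 genes with a p of 0.01 to 0.05 and 52.0% of the 14197 genes above. The 32 genes had a median absolute log2 fold change of 0.49 between CCI+YZP and CCI+BZ, and a median of 0.147 in the same direction between CCI+YH and CCI. Because the genes were chosen by their p in CCI+YZP against CCI+BZ, that choice alone raises their size there, and the 2 medians are not a comparison of size. Of the 32, 12 had an unadjusted p under 0.05 there, all of the same sign. With genes chosen by a fit of the 6 libraries alone, 19 of 24 at a p under 0.001 had the same sign (79.2%), and 90 of 118 at a p under 0.01 (76.3%). Over all 14939 genes Pearson's r between the log2 fold changes was 0.0924. Genes are not independent replicates, and these are descriptions without a p.

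**Figure D3:**
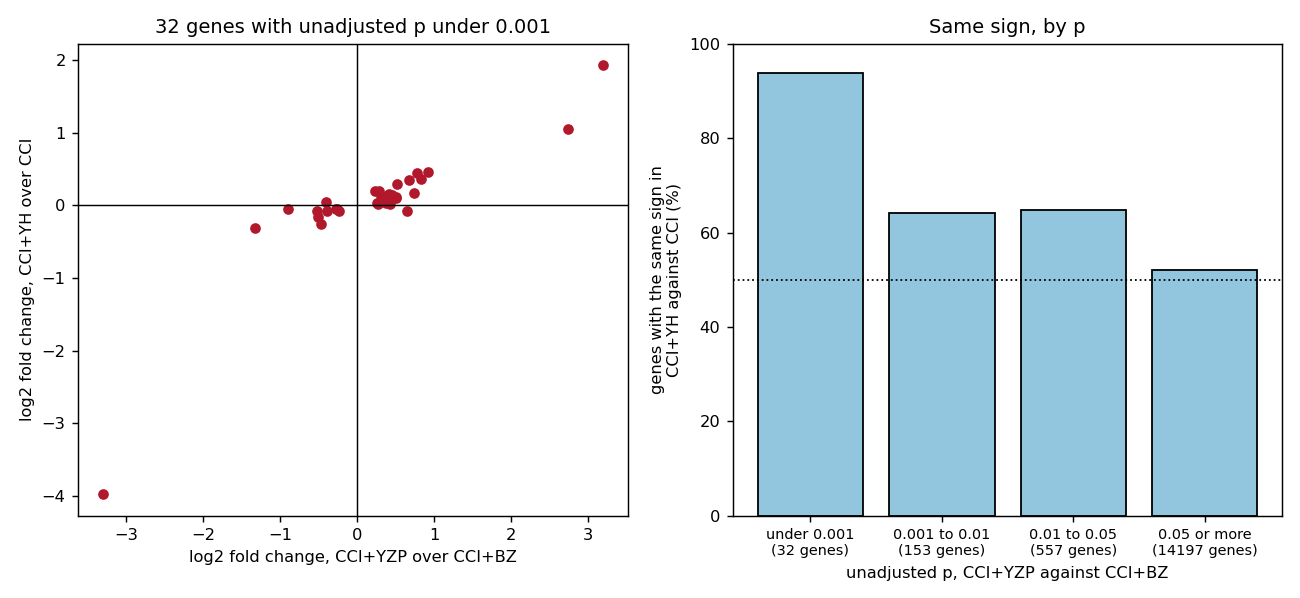
Left, log2 fold changes of CCI+YH over CCI (vertical) against CCI+YZP over CCI+BZ (horizontal) for the 32 genes with an unadjusted p under 0.001 in CCI+YZP against CCI+BZ. Right, the percentage of genes with the same sign in both comparisons, by p in CCI+YZP against CCI+BZ, with 93.8% in the smallest class, 52.0% in the largest and a dotted line at 50%.

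Values of the printed genes were set side by side for these comparisons. In CCI+YH against CCI, the log2 fold change was 0.17 for ENSRNOG00000021824 (SE 0.0796, edgeR adjusted p = 0.891), 0.44 for ENSRNOG00000045863 (SE 0.101, 0.541) and 0.36 for the third gene (SE 0.113, 0.720). It was 0.042 for ENSRNOG00000011427 (SE 0.0674, 0.962) and -3.98 for ENSRNOG00000013548 (SE 0.583, 0.140). The test of the difference between the 2 comparisons called 0 genes by edgeR (0%), with 587 at an unadjusted p under 0.05 (3.93%), and 5 by DESeq2 (0.0335%). For ENSRNOG00000021824 that difference was 0.57 on the log2 scale (95% interval 0.33 to 0.81, unadjusted p = 0.000195, edgeR adjusted p = 0.999), and for ENSRNOG00000011427 it was -0.45 (-0.66 to -0.25, adjusted p = 0.999). For ENSRNOG00000013548 it was 0.68 with an interval of -1.002 to 2.36. These genes were chosen by their p in CCI+YZP against CCI+BZ, which is part of this difference. That choice alone pushes the difference towards the sign found there, so these intervals and the unadjusted p are descriptions.

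The position of the other groups between CCI+YZP and CCI+BZ was read from group means of log2 CPM. For the 742 genes with an unadjusted p under 0.05, the CCI+YH mean was nearer to CCI+YZP than to CCI+BZ in 488 (65.8%), against 53.1% over all 14939 genes. The CCI mean was nearer to CCI+YZP in 360 (48.5%), against 50.3% over all genes. The Sham mean was nearer to CCI+YZP in 268 (36.1%), against 45.1% over all genes. For most of these genes CCI+YH was thus on the side of CCI+YZP and Sham on the side of CCI+BZ, with CCI divided about evenly.

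The libraries of CCI+YZP and of CCI+BZ were each spread out. The leading principal component over all 15 libraries, computed on log2 CPM, held 22.8% of the variance. On it the CCI+YZP libraries scored -5.64, 17.9 and -6.74, and the CCI+BZ libraries scored 22.4, -11.3 and -19.8. Sham libraries scored -25.7 to -18.8, CCI libraries 7.43 to 26.7 and CCI+YH libraries 10.6, -7.28 and 19.9. The mean score differed by 4.69 for CCI+YZP minus CCI+BZ and by -8.30, the opposite direction, for CCI+YH minus CCI. The 3 most abundant genes took 7.995%, 7.02% and 8.56% of the counts in CCI+YZP and 6.76%, 8.43% and 9.18% in CCI+BZ. CCI+YZP replicate 2 and CCI+BZ replicate 1 thus stood apart from the others of their groups in both measures. Spearman's rho between libraries across genes was 0.982 to 0.991 within the groups and 0.983 to 0.990 between them. Without these 2 libraries the sign of the 3 called genes could hardly change, as their groups did not overlap. EdgeR then called 0 genes between CCI+YZP and CCI+BZ, with 739 at an unadjusted p under 0.05. Log2 fold changes of the 3 genes were 0.76, 0.81 and 0.83 in order of rank (edgeR adjusted p 0.0691, 0.172 and 0.172). The part of this axis in the counts above was not tested beyond that and beyond the covariate for the 3 most abundant genes, which gave 5 calls, 3 higher and 2 lower.

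**Figure D4:**
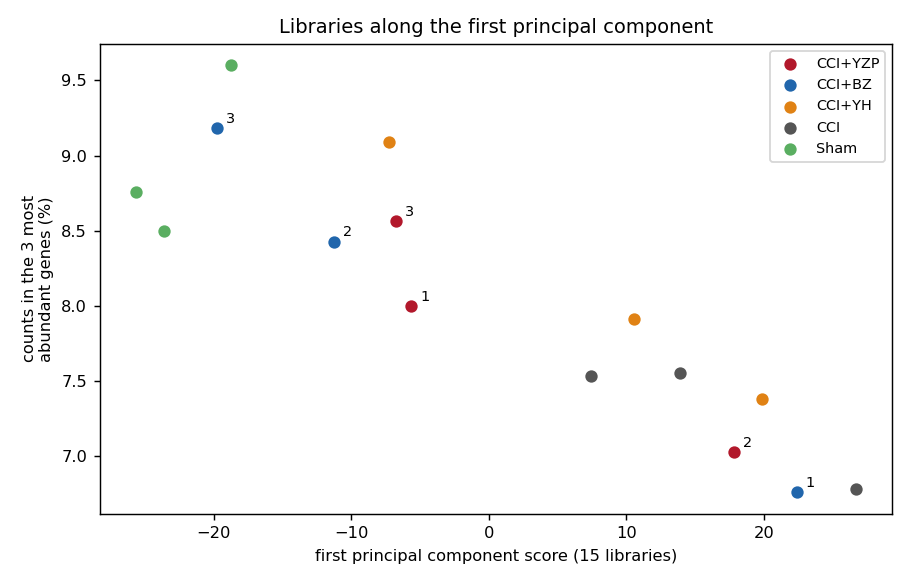
Share of counts in the 3 most abundant genes (%) against the score on the first principal component for the 15 libraries, coloured by group, with replicate numbers beside CCI+YZP and CCI+BZ. CCI+YZP replicate 2 (7.02%) and CCI+BZ replicate 1 (6.76%) lie to the right, near CCI libraries, and the other libraries of both groups lie left of 0.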

How the data were processed

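The deposited values are the authors' raw counts, whole numbers in 1 file per library, made from TRIzol RNA and NEBNext Ultra libraries per the labels' protocols. Per the submitters' processing notes the build was rn4 and DESeq2 1.16.1 was among the tools. The aligner, counter, annotation and strand setting were not given in the sources used here, and overlapping, antisense or near-identical genes may share reads.

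With edgeR 4.0.16 in R 4.3.3, genes with a CPM of at least 1 in 3 of the 6 libraries were scaled by TMM. A quasi-likelihood model with a coefficient for each of 5 groups was fitted to all 15 libraries (10 residual degrees of freedom), and tests were two-sided. SE was the fold change over the square root of F. Principal components used a prior count of 2. CPM in the text is after TMM scaling, and the filter used CPM from raw totals. Same-group libraries differed by more than sampling noise (chi-square per gene of 7.11 to 28.2). Code was tested on simulated data. Alternatives used DESeq2 1.42.0 and limma 3.58.1. The comparison, gene lists and thresholds were chosen with earlier results of these data known. Named genes were to be all called ones, then list members and those of smallest p with a symbol; 0 identifiers matched a symbol, so the lists were not used. The p classes and the 6-library choice of genes were added after the values were seen.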

Additional observations from a re-analysis of the deposited data

How the results depend on the processing

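The count of 3 genes between CCI+YZP and CCI+BZ was also 3, with the same 3 genes, under filterByExpr, no filter, a CPM of 1 in all 6 libraries, Ensembl rows alone, RLE or upper-quartile scaling, and limma voom with or without quality weights. A fit of the 6 libraries alone also called 3, with 1 of them shared. The count was 21 by DESeq2, 26 by DESeq2 on the 6 libraries, 7 at an adjusted p under 0.1, 0 with a log2 fold change of 1 or more in size also required, and, added after seeing the data, 5 with the covariate and 0 without both CCI+YZP replicate 2 and CCI+BZ replicate 1. Leaving out each of the 15 libraries gave 0 to 5 genes. For CCI+YH against CCI the count of 0 became 13 by DESeq2 and 1 with the replicate block, and 0 to 2 with each library left out. For the test of the difference the count of 0 became 5 by DESeq2 and 1 without both CCI+YZP replicate 2 and CCI+BZ replicate 1, and was 0 to 0 with each library left out. Neither of these could be had from the 6 libraries alone. For the counts that moved, the cause was not tested. None of the 7 genes with an adjusted p under 0.1 changed sign in any of 31 alternatives. That outcome was nearly fixed in advance, because these genes were chosen by p in the same libraries. In each of them the CCI+YZP and CCI+BZ libraries did not overlap, so leaving libraries out could hardly change the sign.

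Libraries with the same number did not deviate together (r = -0.129, -0.136 and 0.105 between CCI+YZP and CCI+BZ), so the numbers were not taken as pairs. No CCI+YZP library correlated best with its own number. The replicate block gave 2 genes for CCI+YZP against CCI+BZ, 1 higher and 1 lower. The higher was 1 of the 3 and the lower was ENSRNOG00000013548 (adjusted p = 0.0219). The block gave 0 for the test of the difference.

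Depth limits the genes of lowest level, where the interval was widest.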

Other observations

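Some genes were high in a single library within a group. A level of at least 5 CPM and at least 10 times that of the next library of the group was seen for 6, 8 and 6 genes in CCI+YZP replicates 1, 2 and 3, and for 10, 5 and 8 genes in CCI+BZ replicates 1, 2 and 3. The most extreme gene in CCI+YZP held 1.02, 311 and 1.32 CPM there, against 1.99, 0.851 and 0.932 CPM in CCI+BZ. It had the largest fitted difference of the genes with an unadjusted p under 0.05, a log2 fold change of 6.37 with an edgeR adjusted p of 0.733, resting on CCI+YZP replicate 2. CCI+YH replicate 2 held 23.8 CPM of it, and the other 13 libraries held 0.525 to 1.99 CPM.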
